A study of Mus musculus with 12 samples.

Results

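The values describe what remains of the difference between Pax7High and Pax7Low satellite cells in muscle of 28-month mice. Of the 12 arrays of the series, the 6 titled Old_Pax7_high (3 arrays) and Old_Pax7_low (3 arrays) carry this comparison, and the 6 arrays of 6-week mice, 3 for each fraction, serve as its reference. All mice carried Tg:Pax7-nGFP, a transgene in which regulatory sequence of Pax7 drives a nuclear green fluorescent protein, and no treatment, strain or sex is named for any group. The labels call the cells of all groups quiescent skeletal muscle satellite cells (QSCs). They were sorted from digested limb muscle on size, granularity and GFP alone, so that Pax7High and Pax7Low are ranges of reporter brightness, and each array holds RNA pooled over many cells. Total RNA was extracted, for the old mice amplified per the methods, and the samples were run on Affymetrix Mouse Gene 1.0 ST arrays. Levels are given as log2 RMA values, a scale on which a difference of 1 is a doubling. Features that carry exactly 1 gene symbol numbered 14184 of 18007 and stood for 13076 genes, all of which were tested. Whether the 3 arrays of a group stem from 3 animals or from 1 is stated nowhere in the labels, and the spread behind each p-value may then be technical.

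Satellite cells are the stem cells of skeletal muscle. They lie beneath the basal lamina of the fibre and rest in quiescence until injury, after which they divide, commit to the myogenic lineage and fuse, or return to rest. Pax7 is the paired-box transcription factor that marks them. Myf5 is already expressed in quiescent satellite cells, Myod1 protein marks their activation, and Myog (myogenin) drives terminal differentiation. Cells with a bright Pax7 reporter are known in young muscle as a deeper quiescent state than cells with a dim one.

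In old muscle 1 gene of 13076 passed the test for a difference between the fractions. Fos, a subunit of the AP-1 transcription factor and the classic immediate early gene, was lower in Old_Pax7High cells, 4.87-fold on the linear scale. In young muscle the same fit called 160 genes higher and 150 lower in Pax7High cells. Genes that were higher in young Pax7High cells mostly kept their direction at 28 months with smaller values, whereas the differentiation genes that were lower there, led by Myog and Mymk, had smaller differences between the old fractions. Both sets were chosen by their young difference, which by itself favours smaller old values. The change of the difference with age itself passed for Klhl41 and St8sia5 alone. Oxidative metabolism genes, lower in young Pax7High cells, lay around 0 in old cells. Immediate early genes as a list had medians below 0 at both ages.

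The sequences behind the genes at both ends of this pattern are shown first. Fos, Nr4a1 and Junb are the immediate early genes with the lowest p in old cells (the latter pair chosen after their values were seen), and Klhl41 and Actc1 are differentiation genes with a wide difference in young cells and a smaller one in old cells. For each, the 250 bases before the gene's start are given 5′ to 3′ in the direction of transcription, from RefSeq (build GRCm38.p6). In the first set, capitals mark TGACG, the cyclic AMP response half-site, on either strand (CGTCA on the other).

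Fos (chr12:85473640-85473889, plus strand): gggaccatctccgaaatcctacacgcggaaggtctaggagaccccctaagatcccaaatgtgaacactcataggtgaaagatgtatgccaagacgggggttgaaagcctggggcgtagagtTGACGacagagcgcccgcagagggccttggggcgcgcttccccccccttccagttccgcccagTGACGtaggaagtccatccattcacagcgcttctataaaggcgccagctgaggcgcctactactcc

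Nr4a1 (chr15:101266596-101266845, plus strand): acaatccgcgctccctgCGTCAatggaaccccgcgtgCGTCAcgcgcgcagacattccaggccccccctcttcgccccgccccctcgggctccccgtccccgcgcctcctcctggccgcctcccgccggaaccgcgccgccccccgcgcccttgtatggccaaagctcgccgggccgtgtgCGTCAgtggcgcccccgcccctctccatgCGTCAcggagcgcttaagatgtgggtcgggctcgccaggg

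Junb (chr8:84978749-84978998, minus strand): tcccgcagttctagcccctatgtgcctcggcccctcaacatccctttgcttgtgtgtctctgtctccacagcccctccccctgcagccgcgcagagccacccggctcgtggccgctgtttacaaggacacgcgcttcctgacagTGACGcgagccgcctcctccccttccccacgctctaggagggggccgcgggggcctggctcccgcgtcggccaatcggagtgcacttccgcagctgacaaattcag

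In the second set, capitals mark the E-box CAGCTG, which myogenic factors bind, the MEF2 site and the CArG box of serum response factor, searched on both strands. These 3 motifs were searched apart from each other, and no match overlapped another in the sequences shown. They are not marked in the first set, where the Fos and Junb sequences also hold CAGCTG, in lower case. The Actc1 sequence holds no CAGCTG, so the E-box does not set the differentiation genes shown apart from the immediate early ones.

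Klhl41 (chr2:69669870-69670119, plus strand): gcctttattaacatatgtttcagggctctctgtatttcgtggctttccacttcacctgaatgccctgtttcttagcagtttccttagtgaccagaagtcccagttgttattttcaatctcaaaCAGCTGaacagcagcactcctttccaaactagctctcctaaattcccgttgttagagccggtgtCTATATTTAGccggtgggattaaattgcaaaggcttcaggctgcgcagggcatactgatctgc

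Actc1 (chr2:114052876-114053125, minus strand): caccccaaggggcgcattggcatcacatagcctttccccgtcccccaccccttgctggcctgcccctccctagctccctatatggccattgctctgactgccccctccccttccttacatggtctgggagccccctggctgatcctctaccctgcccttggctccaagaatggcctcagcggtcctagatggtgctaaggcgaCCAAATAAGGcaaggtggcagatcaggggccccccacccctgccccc

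The half-site began 129 and 66 bases before the start of Fos, 233, 213, 69 and 40 bases before that of Nr4a1, and 106 bases before that of Junb. It was present in 17.8% of all 32851 promoters of this length and in 17 of the 29 promoters (58.6%) found for 23 of 27 immediate early genes. In promoters of genes called lower and higher in young Pax7High cells the half-site share was 14.7% and 26.3%. The CArG box was held by 1.47% of all promoters and by 5 of the 29 immediate early promoters. In front of Klhl41 an E-box lay 127 and a MEF2 site 63 bases before the start, and in front of Actc1 a CArG box lay 47 bases before it. Among 177 promoters of 122 of the 150 genes called lower in young Pax7High cells, 19.8% held the E-box (13% of all promoters) and 6.78% the MEF2 site (2.92% of all). The E-box was also held by 17% of 171 promoters of genes called higher in young Pax7High cells and by 17.2% of the immediate early promoters, and the MEF2 site by 1.75% and 13.8% of these. A match of letters is a description of the sequence and not a binding site.

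Before the comparisons, the labels were set against the transcript of the gene they name. Pax7 read 8.08, 7.23 and 7.82 on the 3 arrays labelled Old_Pax7High and 8.88, 8.15 and 7.90 on those labelled Old_Pax7Low. The groups overlapped, and the mean was lower in the High arrays, by -0.60 (SE 0.38, limma adjusted p = 0.86, 95% interval -1.41 to 0.21). In young cells the sign was the reverse, at 0.55 (SE 0.26, adjusted p = 0.35), with 8.15, 7.95 and 8.36 in High against 7.97, 7.04 and 7.81 in Low. The Pax7 transcript therefore did not follow the label of the old arrays, and High and Low below are the labels' names for reporter level. Other satellite cell markers were read on the old arrays as well. Myf5 ranged from 8.69 to 9.72, Cd34 from 8.23 to 9.05, Vcam1 from 8.47 to 9.55 and Cdh15 from 5.41 to 6.88. None of these values goes against the labelled cell type, and the series holds no other sorted cell type to set them against.

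The old arrays were noisier than the young ones. The median SD of a gene over 3 arrays was 0.32 in Old_Pax7High and 0.33 in Old_Pax7Low, against 0.23 in both young groups. Pearson correlations between 2 old arrays were 0.924 to 0.943 within High, 0.912 to 0.928 within Low, and 0.906 to 0.940 between the fractions, so that the correlations between fractions overlapped those within a fraction. In young cells the correlations within a fraction, 0.968 to 0.979, all lay above those between fractions, 0.950 to 0.967. The fit gave old arrays less weight (0.68) than young arrays (1.47), and the median standard error of a difference was 0.32 in old and 0.22 in young cells. Of the groups compared here, the methods give an RNA amplification step for the old mice and state none for the young, so that age and preparation cannot be told apart in any comparison of the ages.

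**Figure D1:**
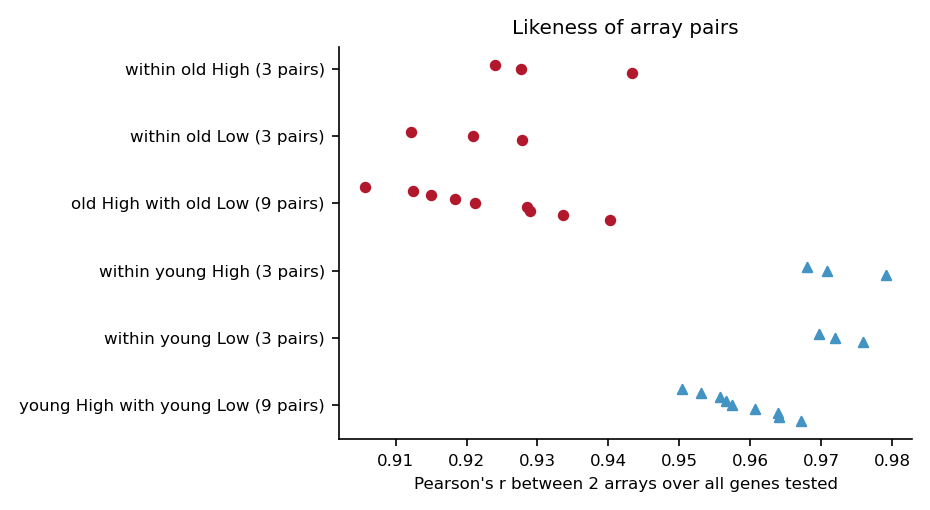
Pearson's r between pairs of arrays over 13076 genes (x axis), for pairs within each group and between the fractions of one age (y axis); each point is 1 pair, circles for 28 months and triangles for 6 weeks. Old pairs from different fractions (0.906 to 0.940) overlap old pairs within a fraction (0.912 to 0.943), and young pairs from different fractions (0.950 to 0.967) lie below all young pairs within one.

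The first comparison asked which genes differ between Old_Pax7High and Old_Pax7Low cells. The limma fit called 0 genes higher (0% of those tested) and 1 lower (0.00765%) at an adjusted p under 0.05, and 850 genes had an unadjusted p under 0.05, 6.5% of all. The called gene was Fos (chromosome 12). Its levels were 7.27, 7.31 and 6.70 in Old_Pax7High and 9.31, 9.44 and 9.39 in Old_Pax7Low. The groups lay far apart, with the 3 Low arrays close to each other. The difference was -2.28 (SE 0.31, 95% interval -2.95 to -1.62, adjusted p = 0.032). In young cells Fos differed by -0.79 (SE 0.21, adjusted p = 0.067), also without overlap, and the interaction of fraction and age was not called (adjusted p = 0.37). Without any 1 of the 6 old arrays, Fos no longer passed, with adjusted p from 0.077 to 0.15 and the difference always between -2.39 and -2.09. Over 19 alternatives the adjusted p ran from 0.0015 to 0.16, and 9 of them called it.

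Overlap between the arrays of the fractions gives another view. In old cells 853 genes (6.52%) had all High arrays above all Low arrays and 660 (5.05%) the reverse, and in young cells 1324 (10.1%) and 1180 (9.02%). With so few arrays, a share of genes separates in each direction by array order alone, even where the fractions do not differ. Lack of overlap is therefore a description of the values here and below, and not a test. With each array centred on its median, the old counts became 696 and 768, so that the excess of higher over lower genes turned with the scaling. A difference of over 1 in either direction was read for 398 genes in the noisier old arrays and for 326 in the young ones. With the arrays also not overlapping, these were 116 higher and 85 lower genes in old cells, and 146 higher and 142 lower in young cells. Genes with the lowest p in old cells outside the naming rule, chosen after their values were seen, include Znhit6, a snoRNP assembly factor (2.15, SE 0.36, adjusted p = 0.12), Pmm2, an enzyme of mannose metabolism (1.97, SE 0.35, adjusted p = 0.14), Bambi, a decoy receptor of TGF-beta signalling (-1.74, SE 0.32, adjusted p = 0.14) and the imprinted gene Mest (-2.13, SE 0.44, adjusted p = 0.21). None of the 4 passed in this fit, and all 4 passed when no array weights were used. Mest was the one of them that passed in young cells, at -1.43 (SE 0.30, adjusted p = 0.017), with the same sign.

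The second comparison asked how the genes that separate the fractions in young muscle behaved in old muscle. The young contrast chose these genes, with an estimate of the spread that old and young arrays share. A choice by the young difference favours large young values, so a smaller old median is partly built in. Of 160 genes called higher in young Pax7High cells (1.22% of those tested), 140 (87.5%) were also higher in Old_Pax7High cells, against 52.5% of all genes. Their median difference was 1.12 in young and 0.46 in old cells (0.02 over all genes). The old arrays of 57 of them (35.6%) did not overlap in that direction, against 6.52% of all genes. In that direction 48 (30%) had an unadjusted p under 0.05, against 3.58% of all genes. Of 150 genes called lower in young Pax7High cells (1.15%), 106 (70.7%) were lower in old cells too, against 47.5% of all genes. Their median went from -1.22 in young to -0.21 in old cells. The old arrays of 26 (17.3%) did not overlap in that direction, against 5.05% of all genes. An unadjusted p under 0.05 in that direction was found for 19 (12.7%), against 2.92% of all genes. None of the 310 was called in old cells. Under other settings the genes called at both ages were Ccn4, Fos and Nr4a1. With each age fitted alone, 127 and 123 genes were called in young cells, of which 89% and 74% kept their sign in old cells.

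**Figure D2:**
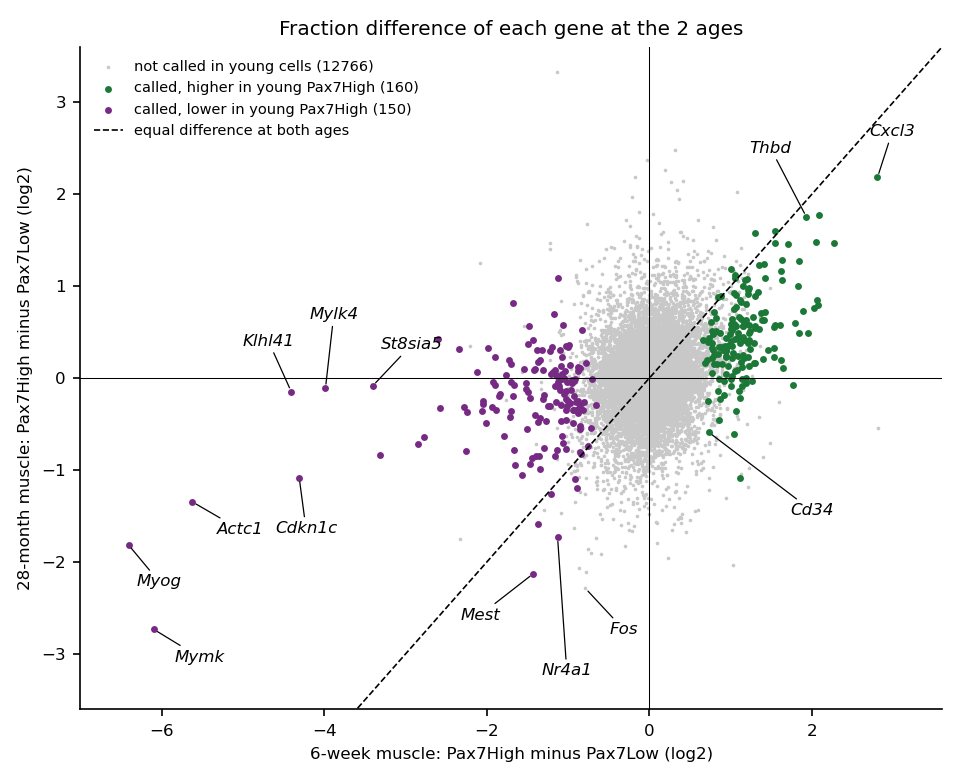
Difference between Pax7High and Pax7Low (log2) of each of 13076 genes in 6-week muscle (x axis) and 28-month muscle (y axis); green and purple points are the 160 and 150 genes called in young cells and the dashed line marks equal differences. Green points lie mostly above 0 (140 of 160), and the purple points farthest left, from Myog to St8sia5, lie far above the dashed line.

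Among the genes higher in young Pax7High cells, the following did not overlap in old cells either, with old differences below the young ones. Cxcl3, a chemokine that draws neutrophils, read 8.21, 7.13 and 6.88 in Old_Pax7High and 5.73, 5.78 and 4.17 in Old_Pax7Low. The fractions did not overlap, and the difference was 2.18 (SE 0.49, limma adjusted p = 0.245) against 2.81 in young cells (SE 0.33, adjusted p = 0.00033). Thbd, the cell surface anticoagulant thrombomodulin, read 8.22, 7.92 and 8.15 against 5.77, 6.89 and 6.38. Every High array again lay above every Low array, with a difference of 1.75 (SE 0.38, adjusted p = 0.245) beside 1.93 in young cells. The prostaglandin transporter Slco2a1 (1.77 old, 2.09 young) and the sialidase Neu2 (1.48 old, 2.05 young) did not overlap either. Igfbp5, a binding protein of insulin-like growth factors, read 10.16, 9.91 and 9.99 against 9.21, 8.87 and 8.98. The fractions did not overlap, at a difference of 1.00 (SE 0.26, adjusted p = 0.35), and in young cells the difference was 1.83.

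Ccn2 (connective tissue growth factor) differed by 0.79 in old and 2.07 in young cells, without overlap at either age. Timp1, an inhibitor of matrix metalloproteinases, differed by 0.85 against 2.06, Tmtc2 by 0.49 against 1.95 and the cytokine receptor subunit Csf2rb2 by 0.76 against 2.03, and the old arrays of all 3 overlapped. Ccn4, a matricellular protein of the same family as Ccn2 that was chosen after its values were seen, read 6.44, 6.62 and 6.32 in Old_Pax7High and 4.95, 4.93 and 4.69 in Old_Pax7Low. The arrays of each fraction lay close together and the fractions apart, and the difference was 1.60 (SE 0.29, adjusted p = 0.14) in old and 1.55 (adjusted p = 0.0006) in young cells. For none of these genes was the interaction of fraction and age called.

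**Figure D3:**
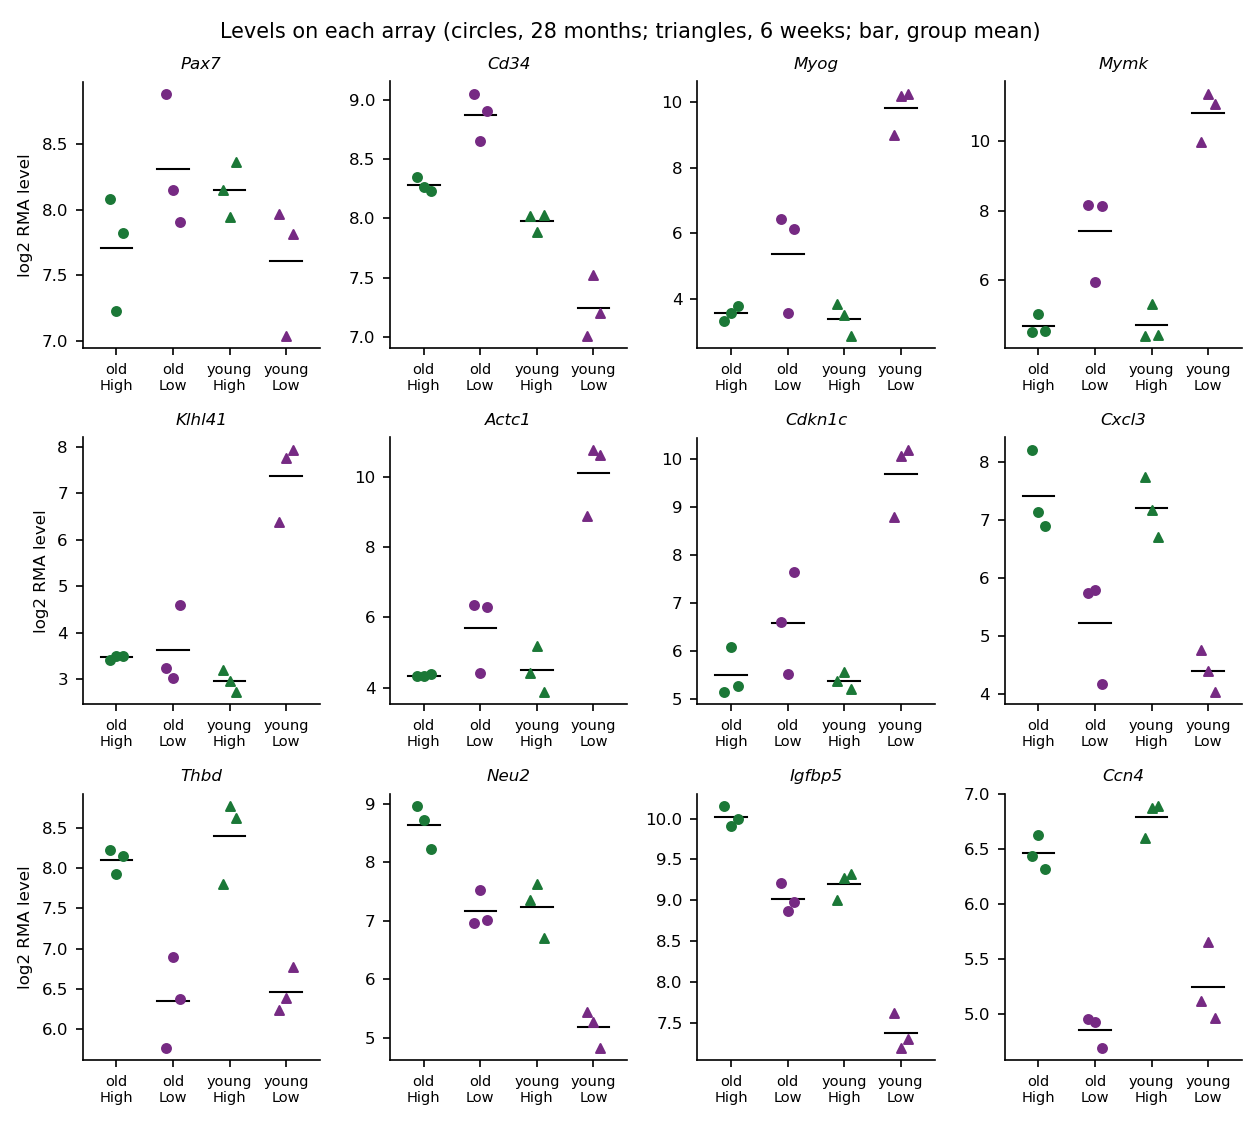
Log2 RMA levels (y axes) of 12 genes on each of the 12 arrays, by group (x axes); points are arrays (circles 28 months, triangles 6 weeks, green Pax7High, purple Pax7Low) and bars are group means. Myog and Mymk read 9.0 to 11.38 on the young Pax7Low arrays and 3.58 to 8.18 on the old Pax7Low arrays, whereas Cxcl3, Thbd, Neu2, Igfbp5 and Ccn4 separate the fractions at both ages.

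The differentiation genes showed the widest gap between the ages. Myog read 6.43, 3.58 and 6.14 in Old_Pax7Low and 3.34, 3.57 and 3.80 in Old_Pax7High. Old_Pax7Low replicate 2 lay among the High arrays, the other Low arrays above them, and the difference of -1.82 did not pass (SE 0.64, limma adjusted p = 0.65). In young cells Myog read 9.0, 10.18 and 10.26 in Low and 3.84, 3.50 and 2.87 in High, a difference of -6.41 (SE 0.44, adjusted p = 1.5e-06). Mymk, which encodes the fusion protein myomaker, read 8.18, 5.96 and 8.13 in Old_Pax7Low and 4.51, 5.02 and 4.53 in Old_Pax7High. The fractions did not overlap, with replicate 2 again the lowest Low array, and the difference was -2.73 (SE 0.59, adjusted p = 0.245) against -6.10 in young cells. Actc1, the cardiac actin expressed by differentiating myoblasts, read 6.36, 4.42 and 6.29 in Old_Pax7Low and 4.32, 4.33 and 4.38 in Old_Pax7High. Replicate 2 was again the low one, just above the High arrays, and the difference was -1.35 (SE 0.67, adjusted p = 0.80) against -5.62 in young cells. Acta1, the skeletal actin, differed by -0.83 with overlap, against -3.31. Cdkn1c, the inhibitor p57 of the cell cycle, read 6.60, 5.51 and 7.65 in Old_Pax7Low and 5.14, 6.09 and 5.27 in Old_Pax7High, overlapping, with a difference of -1.08 against -4.31 in young cells.

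The difference between fractions itself changed with age for 2 genes, 0.0153% of those tested. Klhl41, a muscle kelch protein of the sarcomere, read 3.42, 3.49 and 3.51 in Old_Pax7High and 3.25, 3.02 and 4.59 in Old_Pax7Low. The old fractions overlapped, at a difference of -0.15 (SE 0.51, 95% interval -1.24 to 0.94), and turned to 0.34 without Old_Pax7Low replicate 3. In young cells the difference was -4.41 (SE 0.35), and the interaction was 4.26 (limma adjusted p = 0.040, 95% interval 2.94 to 5.58). St8sia5, a sialyltransferase, read 3.18, 2.84 and 2.96 against 3.15, 3.00 and 3.09 in old cells. All 6 lay close together, and the difference of -0.08 (SE 0.41) stood beside -3.40 (SE 0.28) in young cells, for an interaction of 3.32 (adjusted p = 0.040, 95% interval 2.27 to 4.36). The kinase gene Mylk4 showed the same pattern, -0.11 against -3.99, and fell short of the threshold (interaction adjusted p = 0.055), as did Myog (0.088). Without any 1 of the 6 old arrays St8sia5 was not called, and Klhl41 was called without Old_Pax7Low replicate 3 alone. Over all genes 811 had an unadjusted interaction p under 0.05 (6.2%).

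As a list, 32 of 38 genes of myogenic commitment and differentiation were measured. In old cells 0 were called, 4 were lower at an unadjusted p under 0.05, and the median difference was -0.01, close to the 0.02 of all genes. In young cells 13 of them were called lower (1.15% of all genes), and the median was -0.64. Chrna1, a subunit of the acetylcholine receptor (chosen after its values were seen), was among the 4 members lower without overlap in old cells (5.05% of all genes), at -0.93, and differed by -1.47 in young cells. Mean levels of the list ran from 4.67 to 5.03 on the Old_Pax7Low arrays, against 5.63 to 6.11 on the Young_Pax7Low arrays, and from 4.67 to 4.84 on the High arrays of both ages. In bulk RNA, fewer differentiating cells and less of their transcript per cell cannot be told apart. Markers of muscle fibre, 18 of 23 measured, had a median of -0.01 in old cells. Actn3, an actinin of fast fibres, was the one lower at an unadjusted p under 0.05 (-1.20, SE 0.31, adjusted p = 0.35).

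Genes of satellite cell identity and quiescence, 37 of 40 measured, had a median of -0.19 in old cells and 0.15 in young cells, with 26 members lower and 11 higher in Old_Pax7High. None was called in old cells. Without overlap 5 were lower and 2 higher, beside 5.05% and 6.52% of all genes, and in young cells 4 were called higher and 2 lower, beside 1.22% and 1.15% of all genes. Calcr, the calcitonin receptor that holds satellite cells in quiescence, read 6.71, 6.56 and 4.75 in Old_Pax7High and 7.31, 7.21 and 7.69 in Old_Pax7Low. Every High array was below every Low array, replicate 3 by far the most, and the difference of -1.39 (SE 0.46, limma adjusted p = 0.59) stood beside 0.20 in young cells. Cd34, a surface sialomucin of quiescent cells, read 8.34, 8.26 and 8.23 against 9.05, 8.66 and 8.90 in old cells. It did not overlap at either age, with opposite signs: -0.59 (adjusted p = 0.71) in old and 0.73 (adjusted p = 0.040) in young cells, and an interaction of -1.32 that was not called (adjusted p = 0.31). Gas1, a growth arrest gene, differed by -1.05 in old cells without overlap. The others of the fixed set had smaller differences in old cells: Myf5 by 0.38, Myod1 by 0.39, Vcam1 by 0.35, Des (desmin) by 0.27, Spry1 by 0.05, Itga7 by -0.23 and Cdh15 by -0.52, none with an unadjusted p under 0.05. The sign of Spry1 and Itga7 turned in some alternatives.

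The immediate early response is the first wave of transcription after a stimulus, carried by transcription factors of the AP-1, EGR and NR4A families and by their feedback inhibitors. Of its 28 listed genes 27 were measured, and 23 were lower in Old_Pax7High. Fos was called, 10 had an unadjusted p under 0.05 with the lower value in High, and the arrays of 11 did not overlap in that direction, where 5.05% of all genes did so. The median was -0.28 in old and -0.22 in young cells, against 0.02 over all genes at either age. In young cells 20 of the 27 were lower in High and 10 did not overlap in that direction, where 9.02% of all genes did so. Mean levels of the list ran from 7.14 to 7.54 in Old_Pax7High and 7.93 to 7.98 in Old_Pax7Low, and from 7.51 to 7.63 and 7.66 to 7.84 in the young fractions.

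Beyond Fos, the members named here were chosen after their values were seen. Nr4a1, an orphan nuclear receptor, read 7.62, 7.54 and 6.83 in Old_Pax7High and 9.11, 8.96 and 9.11 in Old_Pax7Low. The fractions stood far apart, the difference was -1.73 (SE 0.27, limma adjusted p = 0.090), and in young cells Nr4a1 was called at -1.13 (SE 0.19, adjusted p = 0.0039). Junb, a second AP-1 subunit, read 6.12, 6.92 and 6.05 against 7.74, 7.76 and 7.93. The difference was -1.45 (SE 0.27, adjusted p = 0.14) without overlap, beside -0.31 in young cells. Socs3, the inhibitor of cytokine signalling, differed by -1.37, Btg2, an antiproliferative factor, by -1.22, Fosb by -1.21 and Egr1 by -1.20 in old cells, each without overlap, and by -0.46, -0.57, -0.47 and -0.56 in young cells. Egr2 differed by -1.48 with overlap. Atf3 (-0.13), Dusp1 (0.08), Nr4a2 (-0.10) and Fosl1 (0.15), which belong to the same response, overlapped in old cells. Replicate 3 was the lowest High array for Fos, Nr4a1, Junb, Btg2, Fosb and Egr1.

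**Figure D4:**
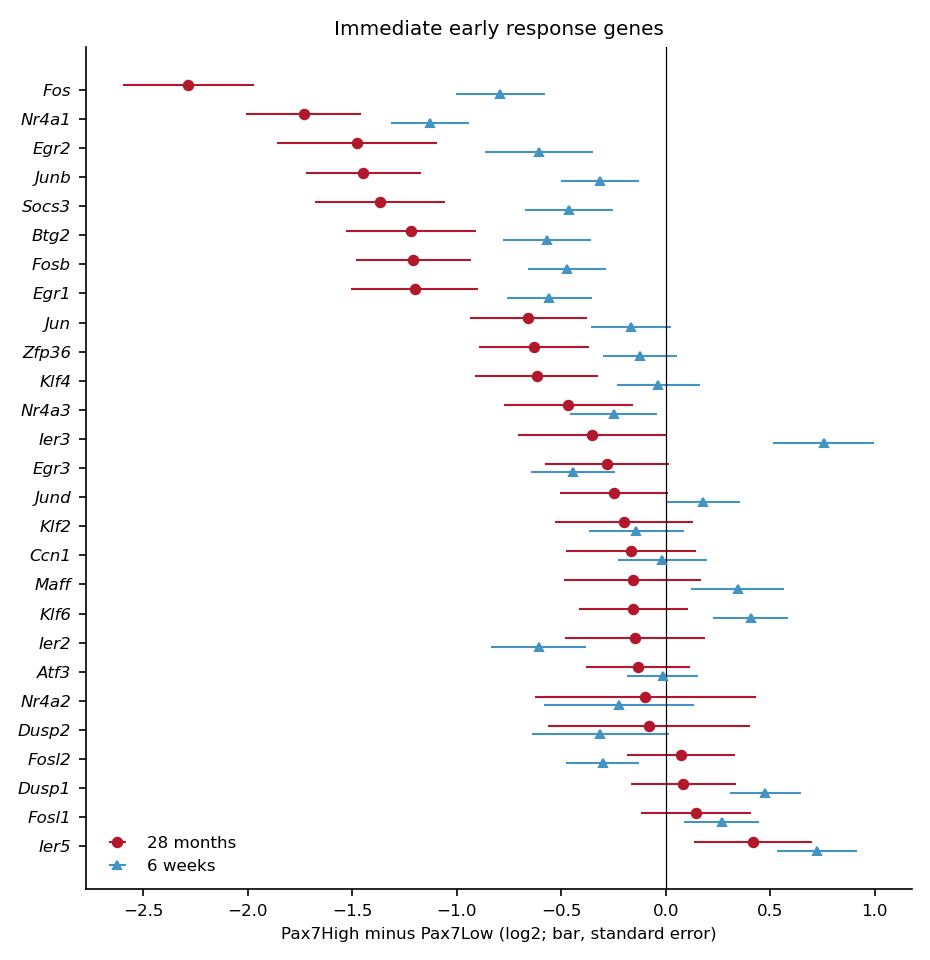
Difference between Pax7High and Pax7Low (log2, x axis) of the 27 immediate early genes measured (y axis), at 28 months (circles) and 6 weeks (triangles), with bars of 1 standard error. The 8 genes with the widest old difference, from Fos (-2.28) to Egr1 (-1.20), all lie below 0 at both ages and farther from 0 in old cells.

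Oxidative gene lists lay lower in young Pax7High cells and were centred near 0 in old cells. For respiratory chain complex I, the NADH dehydrogenase (35 of 37 genes measured), the median was 0.01 in old and -0.58 in young cells. In young cells 34 of the 35 were lower in High and 26 did not overlap in that direction (9.02% of all genes), and in old cells 16 were lower and 19 higher. Complexes II to IV (25 measured) had medians of 0.05 and -0.53, ATP synthase (15 measured) -0.08 and -0.49, and the TCA cycle (19 measured) -0.08 and -0.52. None of their members was called in old cells, and 2, 2, 0 and 4 were called lower in young cells (1.15% of all genes). The old median of complex I, complexes II to IV, ATP synthase and the TCA cycle changed sign in 1 or more of the alternatives.

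Single oxidative genes went either way in old cells. Ndufv1, a core subunit of complex I, read 6.33, 5.83 and 6.27 in Old_Pax7High and 6.97, 7.53 and 7.84 in Old_Pax7Low, lower without overlap, by -1.30 (SE 0.31, limma adjusted p = 0.30; young -0.52). Fh1, the fumarase of the TCA cycle, read 7.26, 7.17 and 7.34 against 5.86, 6.88 and 5.75, higher without overlap, by 1.09 (SE 0.35, adjusted p = 0.56). In young cells Fh1 was called lower, by -1.13 (SE 0.24, adjusted p = 0.019), and its interaction did not pass (2.22, adjusted p = 0.14). Cox6b1 of complex IV differed by 0.44 in old and -0.38 in young cells, and Idh3b of the TCA cycle by -0.65 and -0.49.

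The medians of the fatty acid oxidation lists followed the same course, less clearly for peroxisomes. The mitochondrial list (24 of 29 measured) had medians of 0.03 in old and -0.39 in young cells, and the peroxisomal list (15 of 23) 0.01 and -0.27. In young cells 12 of the 24 mitochondrial genes were lower in High without overlap and 2 higher. Of the 15 peroxisomal genes 2 were lower without overlap and 0 higher, where 9.02% of all genes were lower so. In old cells the thiolase Acaa2 read 5.68, 5.48 and 6.08 in High and 4.85, 4.68 and 4.37 in Low. The High arrays were all higher, by 1.11 (SE 0.26, limma adjusted p = 0.30), where the young difference was -0.36. Etfdh, which passes electrons from fatty acid oxidation to ubiquinone, was lower without overlap, by -0.92 (SE 0.26, adjusted p = 0.44; young -0.68). Cpt1a, the carnitine transferase that admits fatty acids to mitochondria, differed by -0.46 and overlapped. Cat (catalase) differed by -0.16 and Dbi, the acyl-CoA binding protein, by 0.27, both overlapping. Pdk4, the kinase that turns off pyruvate dehydrogenase, read 8.63, 8.50 and 8.78 against 9.45, 8.85 and 9.22, -0.54 without overlap (SE 0.27, adjusted p = 0.80), as in young cells (-0.50). Glycolysis genes (19 of 23 measured) had medians of 0.13 in old and 0.06 in young cells, and the lactate exporter Slc16a3 differed by 1.17 without overlap (SE 0.35, adjusted p = 0.49). The remaining metabolic list, pyruvate dehydrogenase and its kinases (0.10 old, -0.24 young), also had no member called in old cells. Nor had the proteasome (0.10 old, -0.25 young), which degrades proteins and is not a metabolic list. In young cells 24 of its 26 measured genes were lower in High. Without overlap 11 were lower, where 9.02% of all genes were so, and 1 was higher.

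**Figure D5:**
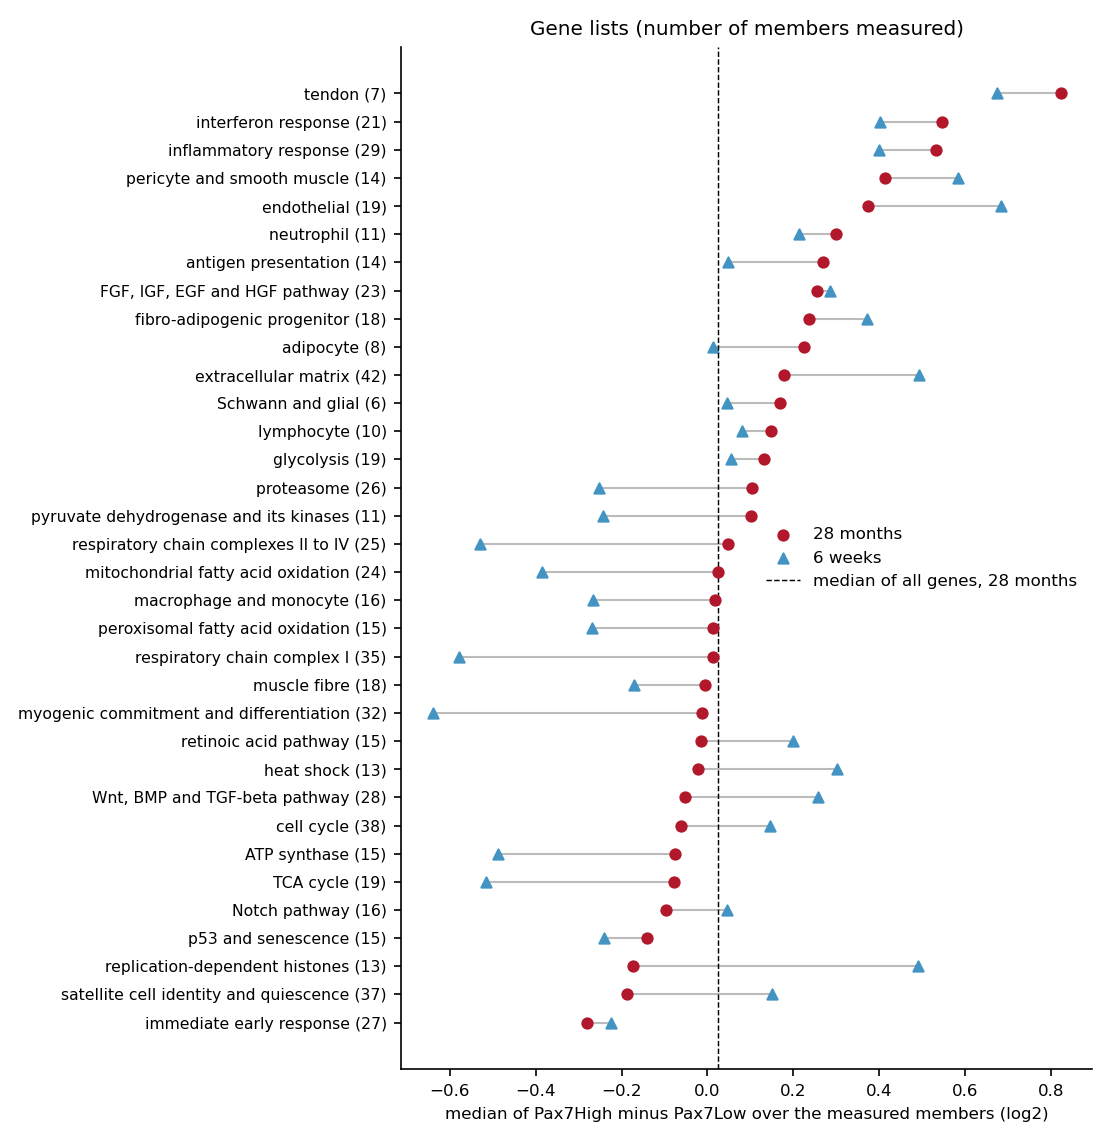
Median difference between Pax7High and Pax7Low (log2, x axis) over the measured members of each list with at least 6 of them (y axis; number measured in brackets), at 28 months (red circles) and 6 weeks (blue triangles); the dashed line is the old median of all genes, 0.02. Oxidative and myogenic lists lie left of it in young cells (-0.49 to -0.64 for complex I to IV, ATP synthase, TCA cycle and commitment) and near it in old cells, and tendon, interferon, inflammatory, pericyte and endothelial lists lie right of it at both ages.

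Signalling genes divided by pathway. Of 23 measured genes of the FGF, IGF, EGF and HGF pathway, 16 were higher in Old_Pax7High, 5 at an unadjusted p under 0.05 and 6 without overlap (6.52% of all genes), with a median of 0.25 (young 0.29). Hgf, the growth factor that activates satellite cells through Met, read 3.88, 4.23 and 5.07 against 3.25, 3.37 and 2.96, by 1.20 (SE 0.35, limma adjusted p = 0.49). Its levels were low on all arrays, and the fractions did not overlap. Genes of the Wnt, BMP and TGF-beta pathway had medians of -0.05 in old and 0.26 in young cells. Tgfb3, a ligand, read 5.78, 6.45 and 4.66 in Old_Pax7High and 6.77, 7.31 and 7.55 in Old_Pax7Low. It was lower without overlap, by -1.58 (SE 0.39, adjusted p = 0.31), and in young cells higher, by 0.39. Id3, a target of BMP signalling, differed by -0.95 in old and -0.84 in young cells. Notch genes had medians of -0.10 and 0.05, and the targets Hes1 (-0.47) and Heyl (-0.89) overlapped in old cells. In the retinoic acid pathway (medians -0.02 and 0.20), Cyp26a1, which degrades retinoic acid, read 8.35, 7.68 and 7.69 against 6.10, 6.77 and 6.10. The fractions did not overlap, at 1.58 (SE 0.38, adjusted p = 0.30), and in young cells the difference was 1.30 (adjusted p = 0.015). Adh1, a retinol dehydrogenase, differed by 0.81 with overlap (young 1.19).

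Of 42 matrix genes measured, 0 were called in old cells and 27 were higher in Old_Pax7High (52.5% of all genes were), with a median of 0.18. The arrays of 10 of them did not overlap in that direction, beside 6.52% of all genes. In young cells 39 were higher, 6 were called (1.22% of all genes) and the median was 0.49. Lox, the enzyme that crosslinks collagen and elastin, read 8.15, 7.66 and 7.27 against 6.66, 6.43 and 6.16, by 1.28 (SE 0.44, limma adjusted p = 0.64; young 1.84). Thbs1, thrombospondin, differed by 1.24 (SE 0.38, adjusted p = 0.52; young 1.41), also without overlap. Col3a1, a fibrillar collagen, differed by -0.57 in old and 0.39 in young cells.

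Cell cycle genes (38 of 39 measured) had medians of -0.06 in old and 0.15 in young cells. Mki67, the proliferation marker, read 3.34 to 3.70 on all 6 old arrays and 4.82 to 5.75 on the young ones, with a fraction difference of -0.04 in old cells. Cdk2, a kinase of S phase entry, read 3.75, 3.55 and 3.74 against 4.99, 4.72 and 4.48. It was lower without overlap, by -1.06 (SE 0.27, limma adjusted p = 0.34), and in young cells by -1.57 (adjusted p = 0.00031). Replication-dependent histones (13 of 20 measured) had a median of -0.17 in old and 0.49 in young cells. Heat shock genes (-0.02 and 0.30) and p53 and senescence genes (-0.14 and -0.24) had no member called at either age. In the latter list the lysosomal galactosidase Glb1 read 5.07, 5.44 and 4.86 against 3.43, 4.48 and 3.26, 1.40 higher without overlap (SE 0.37, adjusted p = 0.35; young 0.23).

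Immune genes lay mostly higher in the Old_Pax7High arrays without passing, where 52.5% of all genes were higher. Of 29 measured inflammatory genes 22 were higher (median 0.53, young 0.40), of 21 interferon response genes 18 (0.55, young 0.40) and of 14 antigen presentation genes 12 (0.27, young 0.05). Without overlap, 3 inflammatory, 1 interferon and 1 antigen presentation gene were higher, beside 6.52% of all genes, and 1 interferon gene was lower. The spread between arrays was wide. The mean level of the interferon genes ran from 4.54 to 5.79 in High and from 4.47 to 5.18 in Low. Il33, an alarmin, read 6.09, 5.38 and 6.59 against 4.69, 4.42 and 4.61. The High arrays were all higher, by 1.45 (SE 0.35, limma adjusted p = 0.30), while young cells differed by -0.24. Cxcl12, the ligand of CXCR4, differed by 0.93 without overlap (young 0.74). Nlrc5, the transactivator of MHC class I genes, read 6.21, 7.01 and 8.54 against 4.23, 5.59 and 4.49, by 2.48 (SE 0.53, adjusted p = 0.245; young 0.31). It has 17 features on the array, and for the other 16 the difference ran from -0.81 to 1.41, so that its value depends on the feature.

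Markers of several other cell types of muscle also lay higher in the Old_Pax7High arrays, where 52.5% of all genes were higher. None of these markers was called. Muscle fibre markers were split, 9 higher and 9 lower. Of 19 measured endothelial markers, 17 were higher in Old_Pax7High (median 0.37, young 0.68), and their mean level ran from 5.67 to 6.17 in High and from 5.35 to 5.41 in Low. Pecam1, picked for this role after the values were seen, read 7.07, 7.17 and 6.82 against 5.39, 6.29 and 6.54 (0.95), and Cldn5 6.29, 7.05 and 6.79 against 5.12, 5.74 and 5.67 (1.20, limma adjusted p = 0.49). Both are junction proteins of vessels, and neither overlapped. Tek (-0.68) and Emcn (-0.26) of the same list were lower in Old_Pax7High. Pericyte and smooth muscle markers were higher for 12 of 14 (median 0.41; mean level 5.51 to 5.98 against 5.37 to 5.57), fibro-adipogenic progenitor markers for 12 of 18 (0.24; 5.83 to 6.39 against 5.57 to 6.14) and tendon markers for 6 of 7 (0.82; 4.85 to 5.74 against 4.23 to 4.76). Chad, a cartilage and tendon matrix protein, differed by 1.47 in old and 1.54 in young cells, without overlap, and the pericyte gene Steap4 by 1.23 and 1.34.

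For blood cells, all 11 neutrophil markers measured were higher in High (median 0.30; 5.31 to 5.66 against 4.99 to 5.31), as were 9 of 10 lymphocyte markers (0.15; 2.87 to 3.03 against 2.80 to 2.82) and 8 of 16 macrophage and monocyte markers (0.02; 3.96 to 4.88 against 4.17 to 4.58). Ly6g, a neutrophil surface protein, read 5.74 on Old_Pax7High replicate 1 and 1.88 to 2.54 on the other old arrays, and its difference went from 1.11 to -0.09 without that array. Adipocyte (8 measured, median 0.22) and Schwann and glial markers (6 measured, 0.17) had no member called. The erythroid list was measured by Alas2 alone (0.34), and the cytosolic ribosome by 5 of 40 genes (-0.17). No value of the table is 0 (the lowest is 0.85), and the values carry no detection call. The part of these markers in the differences of matrix, immune and vascular genes given above was not tested.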

How the data were processed

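The 12 arrays were grouped by their titles. Per the labels and the study's methods, cells were sorted into lysis buffer, and the deposited values are log2 RMA values that the authors obtained by background correction, quantile normalization and summary of each probe set. The authors had taken out probe sets that were invariant or not expressed; the cutoffs used for this are not given in the sources used here. Per the labels the old mice were 28 months old; another age is written in the study.

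Of 18007 probe sets, 14184 had 1 gene symbol in the platform annotation, 741 several and 3082 none. The 14184 stand for 13076 genes, and for 635 genes with over 1 probe set the one with the highest mean was used. Group means were fitted on all 12 arrays with limma 3.58.1 in R 4.3.3 (lmFit, arrayWeights by age, eBayes, two-sided, Benjamini-Hochberg over 13076 genes, called under 0.05), with 1 contrast of fractions for each age and their interaction. Intervals are 95% intervals of the moderated statistic. The fit was tested on simulated data. The number of arrays limits the precision.

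The 36 gene lists, the members and the tests were chosen with earlier results of these data known. Genes were named by rule: called genes with the widest old difference (up to 15 a side, without overlap), up to 4 called members of a list or else the 2 with the lowest p, the 8 highest and 8 lowest young differences, up to 6 called interactions a side, and a preset group of genes of quiescence, myogenesis and fat use. Alternatives changed the weights, the arrays fitted, filters at the 40th percentile, the choice of probe set, the normalization, the variance model, a replicate block, the threshold and, in turn, each old array. Promoters come from a RefSeq table.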

Additional observations from a re-analysis of the deposited data

Results flagged for a closer look

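For 2 genes the difference between fractions differed between ages by the interaction term of the limma fit. The interaction was 4.26 on the log2 scale for Klhl41 and 3.32 for St8sia5 (adjusted p = 0.040 for both), since both were low on all old arrays apart from Klhl41 on Old_Pax7Low replicate 3 (4.59) and high on the 3 Young_Pax7Low arrays.

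Another 5 named genes had arrays that did not overlap at either age, with opposite signs. Of these, Acaa2, Cox6b1, Fh1 and Tgfb3 were named as list members with the lowest p in old cells. That choice by itself favours old arrays that do not overlap, and Cd34 was in the preset group. The share of all genes with such a pattern was not counted. The old difference was 1.11 for Acaa2 (young -0.36), -0.59 for Cd34 (young 0.73), 0.44 for Cox6b1 (young -0.38), 1.09 for Fh1 (young -1.13) and -1.58 for Tgfb3 (young 0.39). None of the 5 passed as an interaction, with adjusted p of 0.19 for Acaa2, 0.31 for Cd34, 0.64 for Cox6b1, 0.14 for Fh1 and 0.31 for Tgfb3.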

How the results depend on the processing

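The old difference rested on the settings: 11 genes were called without array weights (5 higher, 6 lower), 2 with every probe set on its own, with centring on array medians, with limma-trend and robust eBayes or at an adjusted p under 0.10, and 0 with only the compared groups fitted, with either filter on level, with the replicate block or at 0.01. Leaving out 1 old array gave 0 to 1 calls. The young difference gave 310 calls, and 95 without weights, 119 at 0.01 and 554 at 0.10. The interaction gave 0 calls with either filter, every probe set on its own, quantile normalization, removal of array trends, the replicate block or at 0.01, 4 at 0.10, and 0 to 1 without 1 old array. Of young-called genes, 2 were also called in old cells without weights (Ccn4, Nr4a1), with limma-trend and at 0.10 (Fos, Nr4a1), and 1 with quantile normalization (Fos) and with centring (Nr4a1).

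The median old difference of genes higher in young Pax7High cells became 0.58 without weights, 0.56 with each age fitted alone and 0.57 at 0.01, and ran from 0.37 to 0.58 without 1 array. That of genes lower there became -0.14 with limma-trend, -0.15 with the replicate block, -0.30 at 0.01 and -0.14 at 0.10, and ran from -0.22 to -0.16 without 1 array. Genes without overlap numbered 431 lower under the filter on the mean, which tests 8363 genes, and 1483 to 1654 higher and 1244 to 1306 lower without 1 array, where fewer arrays have to be apart. Of 95 genes named by the rule, 89 kept 1 sign in all alternatives and Fos was the one called in any of them. Among genes named after their values were seen, Bambi, Ccn4, Junb, Mest, Nr4a1, Pmm2 and Znhit6 were called in old cells without array weights. The sign turned on leaving out 1 array for Cat (-0.47 to 0.36), Itga7 (-0.52 to 0.12), Klhl41 (-0.45 to 0.34), Ly6g (-0.085 to 1.84), Mki67 (-0.11 to 0.069) and Spry1 (-0.22 to 0.34), and for Spry1 also with a weight for each array (-0.027). List medians moved by over 1 SD without 1 array for immediate early genes (-0.45 to -0.24), ATP synthase (-0.10 to 0.06), the proteasome (0.06 to 0.22), endothelial (0.37 to 0.68) and adipocyte genes (0.03 to 0.46). The causes were not tested.

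Whether replicate numbers pair the samples is not stated and cannot be settled with 3 arrays per group. Deviations of same-numbered old arrays correlated at 0.052, 0.053 and 0.045, each the highest for its array. Old High and Low arrays with different numbers correlated at -0.029 to -0.020. Deviations from a group mean cancel out over its 3 arrays, so positive values for same numbers force negative ones elsewhere. Same-numbered young arrays correlated at 0.077, -0.010 and 0.13, and young arrays with different numbers at -0.18 to 0.091. The replicate block moved the old calls from 1 to 0 and the young calls to 167 higher and 149 lower. Without detection calls in the deposited table, how far a level stands above background is unknown.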
